A study of Mus musculus with 2 samples.

Results

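The expression of 9 genes of epithelial salt and fluid transport was described across the cell types of the mouse jejunal crypt: Cftr, Slc12a2, Slc9a3, Slc26a3, Slc26a6, Slc4a4, Kcne3, Kcnq1 and Atp1b1. They were chosen by name as carriers, channels and pump subunits of this pathway, not by their values, but with earlier results of these data known. All 9 are among the 27998 genes counted. Single-cell RNA-seq was performed on crypts of 2 male mice, 12 months old, with a whole-body deletion of miR-375 (375KO), each giving 1 library, called replicate 1 and replicate 2 here. The deletion was made by CRISPR/Cas9 in FVB x B62J F1 hybrid embryos and crossed back to B6 albino mice, and the labels give the strain as C57BL6/2J. It is present in every cell of both mice, so that crypt cells and all other organs lacked the microRNA throughout life. Wild-type libraries were not analysed here, so no value below compares genotypes. The knockout itself was not checked here, as the matrices hold no row for miR-375.

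Fluid secretion in the gut is driven by chloride. Chloride enters crypt cells from the blood side through the sodium-potassium-chloride cotransporter Slc12a2, helped by the sodium pump and by a basolateral potassium channel made of Kcnq1 and Kcne3, and leaves into the lumen through the channel Cftr. Absorption runs the other way, mostly in enterocytes of the villus, where the sodium-proton exchanger Slc9a3 (NHE3) works beside the chloride-bicarbonate exchangers Slc26a3 (DRA) and Slc26a6 (PAT1), while the sodium-bicarbonate cotransporter Slc4a4 loads bicarbonate from the blood side.

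The 2 libraries held 2082 and 1193 cells that the authors had annotated, 3275 in all, with medians of 16475 and 15232 unique molecular identifiers (UMIs, each standing for 1 captured RNA molecule) per cell. The annotation named 10 types: stem, transit-amplifying (TA), secretory progenitor, goblet progenitor, goblet, Paneth, enteroendocrine (EEC), tuft, enterocyte and intraepithelial lymphocyte (IEL). The defining marker of each mature type was highest in its own type in both libraries, Alpi in enterocytes, Muc2 in goblet cells, Lyz1 in Paneth cells, Chga in EECs, Dclk1 in tuft cells and Cd3g in IELs, as was Lgr5 in stem cells, and 48 of 59 markers did so in all. Of the 6 TA markers only 3 (Mki67, Top2a and Hmgb2) were highest in TA cells in both libraries, and Stmn1, Tubb5 and Pcna were not. Of the 5 stem markers 4 were highest in stem cells, and Ascl2 was highest in tuft cells. Of the 5 secretory progenitor markers 3 were highest in that type. None of the 5 goblet progenitor markers was highest in goblet progenitors. Replicate 1 had more mitochondrial reads (median 10.2% against 5.55% of a cell's counts), and its IELs carried 967 CPM of summed enterocyte markers where those of replicate 2 carried 0. No barcode occurred in both libraries. The number of cells per type and library ran from 18 IELs to 931 enterocytes. Secretory progenitors (31 and 19), EECs (54 and 20) and tuft cells (40 and 38) were the least sampled epithelial types.

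Levels are given as UMIs of a gene per 1000000 UMIs of all cells of a type in a library (CPM), first for replicate 1 and then for replicate 2. Cells of 1 mouse are not replicates, so tests were run on UMI sums per library and type. Of the 9 genes, 8 passed the filter on low counts, and Slc9a3 did not. All 8 differed among the 9 epithelial types (edgeR quasi-likelihood F test, Benjamini-Hochberg adjusted p from 7.8e-16 for Slc26a6 to 2.9e-04 for Slc12a2), against 77.3% of the 11013 genes tested. Because the authors' type names rest on these cells' own RNA, the tests describe how far the named classes stand apart.

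**Figure D1:**
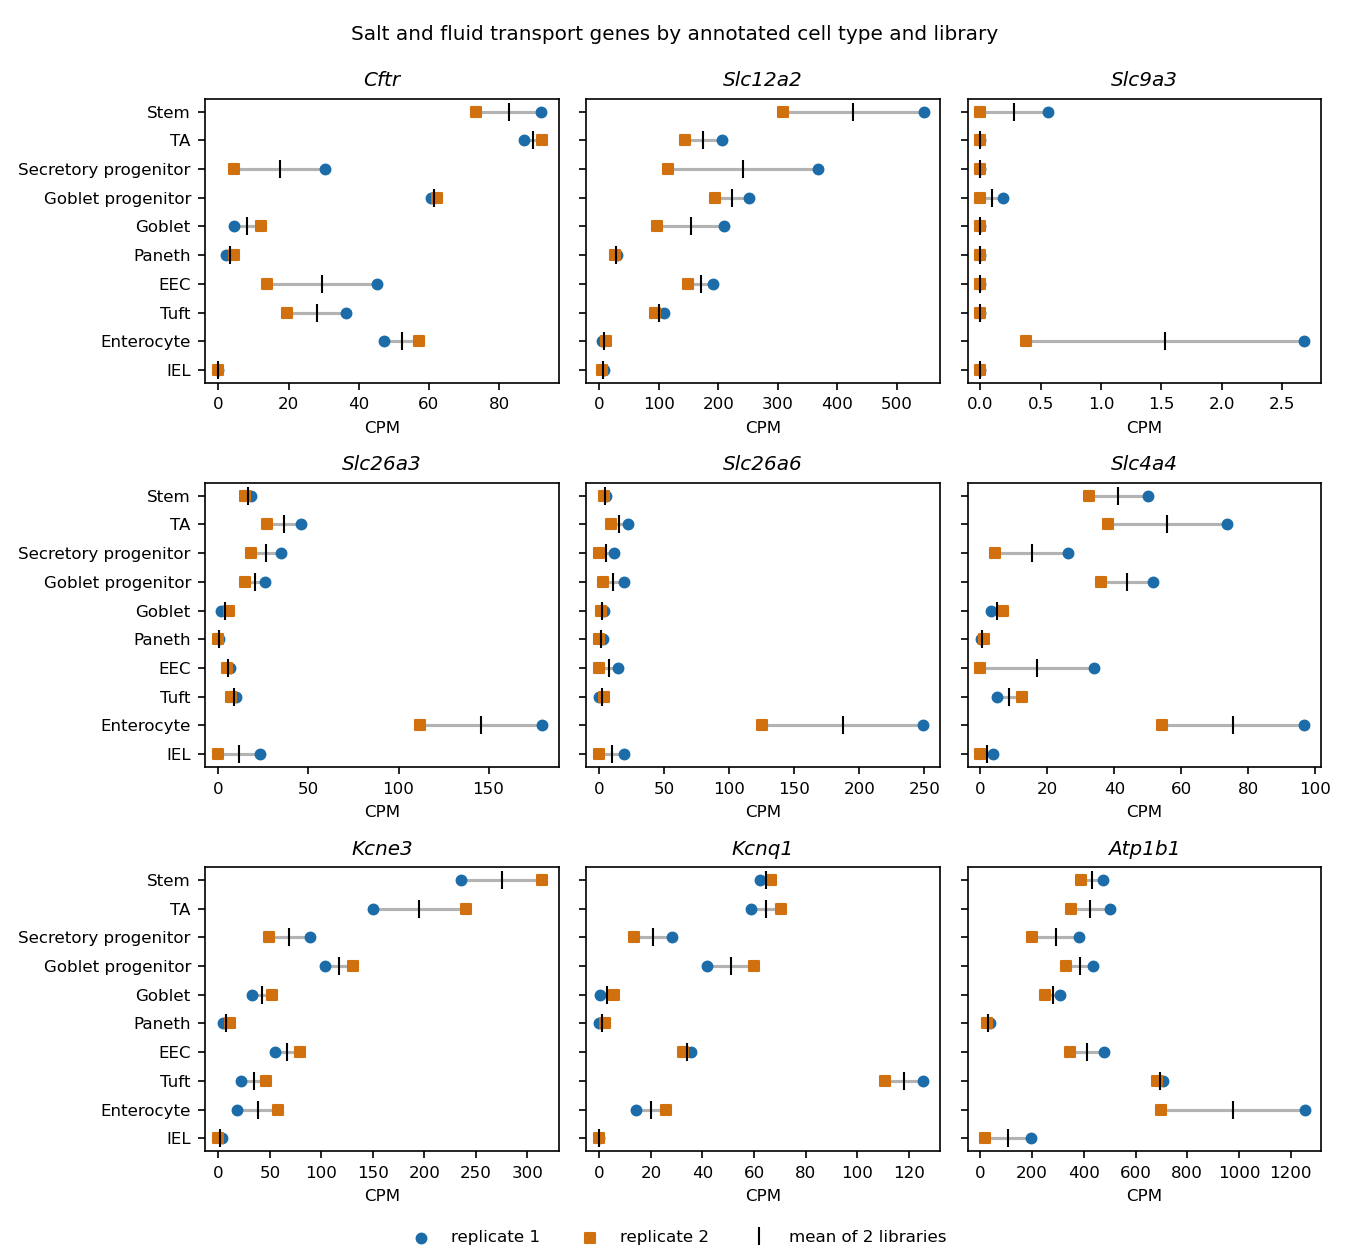
Level of each gene (CPM, linear axis, own range per panel) in the 10 annotated types. Circles are replicate 1, squares replicate 2, and the black tick is the mean of the 2 libraries on a grey line that links them. Slc26a3, Slc26a6, Slc4a4 and Atp1b1 were highest in enterocytes, Slc12a2 and Kcne3 in stem cells, Cftr in stem and TA cells, and Kcnq1 in tuft cells. Slc9a3 was also highest in enterocytes, but on 52 and 2 UMIs, too few to rank the types in replicate 2.

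Cftr, the chloride and bicarbonate channel of the apical membrane, was highest in the dividing compartment but stayed well detected in enterocytes. The gene is encoded at chr6:18170687-18322768 (mm10, plus strand). Its level was 87.0 and 92.3 CPM in TA cells and 91.9 and 73.6 CPM in stem cells, and these ranges overlapped. Goblet progenitors followed with 60.7 and 62.4 CPM and enterocytes with 47.2 and 57.2 CPM, each range separate from its neighbours. EECs had 45.1 and 13.9 CPM and tuft cells 36.3 and 19.6 CPM. The EEC level of replicate 1 was near that of enterocytes, but 1 cell held 46.4% of its 28 UMIs. A Cftr UMI was seen in 7 of 54 and 2 of 20 EECs and in 4 of 40 and 6 of 38 tuft cells. With each cell thinned to the same depth, EECs had 11.3 and 0 CPM and tuft cells 35.9 and 0 CPM. Enterocytes then had 42.4 and 54.45 CPM. Goblet cells had 4.49 and 12.1 CPM and Paneth cells 2.28 and 4.35 CPM. Because 10 genes took most UMIs of Paneth cells, their Cftr level was 14.6 and 36.0 on the TMM scale, which takes account of such genes, and lay above that of goblet cells (4.53 and 12.7). No Cftr UMI was counted in IELs, which allows up to 11.4 and 13.3 CPM at their depth (3 counts of the total).

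The difference of Cftr between enterocytes and the mean of stem and TA cells was -0.39 on the log2 scale (SE 0.23) and did not pass the test (adjusted p = 0.147, edgeR). It passed in 3 of 8 alternative analyses, with the lowest adjusted p of 0.0038 when each cell was thinned to 5000 UMIs. Stem and TA cells exceeded the mean of goblet, Paneth, EEC and tuft cells by 1.93 (SE 0.22, adjusted p = 7.6e-07). At a common depth of 5000 UMIs, 48 of 136 and 39 of 117 stem cells had a Cftr UMI, as did 174 of 930 and 93 of 382 enterocytes, but only 6 of 276 and 7 of 138 goblet cells. Among the TA clusters of the authors, the one with the most Lgr5 UMIs (number 13) had the highest Cftr level, 116 and 128 CPM.

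Slc12a2 (NKCC1), which brings chloride into the cell from the blood side, was highest in stem cells and lowest, of the epithelial types, in enterocytes. It lies on chromosome 18 (57878678 to 57946821, plus strand, mm10). Stem cells held 544.9 and 308 CPM, secretory progenitors 367 and 116 CPM, goblet progenitors 251 and 194 CPM, and TA cells 206 and 143 CPM. Replicate 1 was higher in each of these types and neighbouring ranges overlapped. Enterocytes had 5.06 and 11.03 CPM, close to the 7.62 and 4.44 CPM of IELs, which rest on 2 and 1 UMIs. In contrast to Cftr, the fall from stem and TA cells to enterocytes was steep, at -4.89 on the log2 scale (SE 0.47, adjusted p = 1.2e-05), and by library -5.47 and -3.95.

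Mature secretory cells retained Slc12a2. Goblet cells had 209.7 and 97.0 CPM, tuft cells 109 and 92.9 CPM, and the step from them to stem and TA cells was 0.70 (SE 0.26, adjusted p = 0.0514), just short of the threshold and past it in 6 of 8 alternatives. Paneth cells had 29.6 and 26.8 CPM, but 10 genes took 82.6% and 81.9% of their UMIs, and on the TMM scale their level was 190 and 222 CPM. The EEC level of 192 and 149 CPM was carried by few cells. Of 54 and 20 EECs, 3 and 2 had 10 or more Slc12a2 UMIs and held 86.6% and 75.0% of the total. With each cell thinned to the same depth, the EEC level was 49.1 and 70.0 CPM.

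The subunits of the potassium channel were both present in stem and TA cells, and differed in tuft cells. Kcne3, the small subunit that keeps the channel open in epithelia (chr7:100176502-100184869, plus strand), had 235 and 315 CPM in stem cells, 149.9 and 240.3 CPM in TA cells and 103 and 131 CPM in goblet progenitors. Enterocytes had 18.4 and 58.3 CPM. Enterocytes differed from stem and TA cells by -2.42 on the log2 scale (SE 0.24, adjusted p = 6.5e-08), and stem and TA cells exceeded mature secretory cells by 2.14 (SE 0.18, adjusted p = 2.1e-08).

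Kcnq1, the pore subunit (chr7:143106362-143427042, plus strand), was lower in enterocytes as well, with 14.4 and 26.0 CPM against 62.2 and 66.7 CPM in stem cells and 58.8 and 70.5 CPM in TA cells. That difference was -1.41 (SE 0.30, adjusted p = 0.0014) and did not pass without the mouse term in the model (adjusted p = 0.0744). The highest Kcnq1 level was in tuft cells, at 126 and 111 CPM, above every other type in both libraries. Goblet cells (0.264 and 5.81 CPM) and Paneth cells (0 and 2.06 CPM) were at the other end, although on the TMM scale Paneth cells of replicate 2 (17.1) lay above goblet cells (6.12) and secretory progenitors (10.4). The comparison with the mean of the mature secretory types, 1.79 (SE 0.31, adjusted p = 3.7e-04), therefore combined types on both sides of the crypt level. By library it was 3.08 and 1.36.

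In tuft cells 28 of 40 and 24 of 38 cells had a Kcnq1 UMI, while 3 of 40 and 7 of 38 had a Kcne3 UMI. At 5000 UMIs per cell, Kcne3 was found in 0 of 39 tuft cells, which allows a share of up to 9.03% (exact 95% limit), and in 3 of 38. In stem cells the shares at this depth were 93 of 136 and 79 of 117 for Kcne3 and 42 of 136 and 34 of 117 for Kcnq1, and 28 and 25 stem cells had both, or 20.6% and 21.4%, beside 21.1% and 19.6% from the product of the single shares. These limits cover counting error only, and free RNA can add UMIs to cells that do not express a gene. In IELs, 1 of 50 and 0 of 18 cells had a Kcne3 UMI and none had one of Kcnq1.

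**Figure D2:**
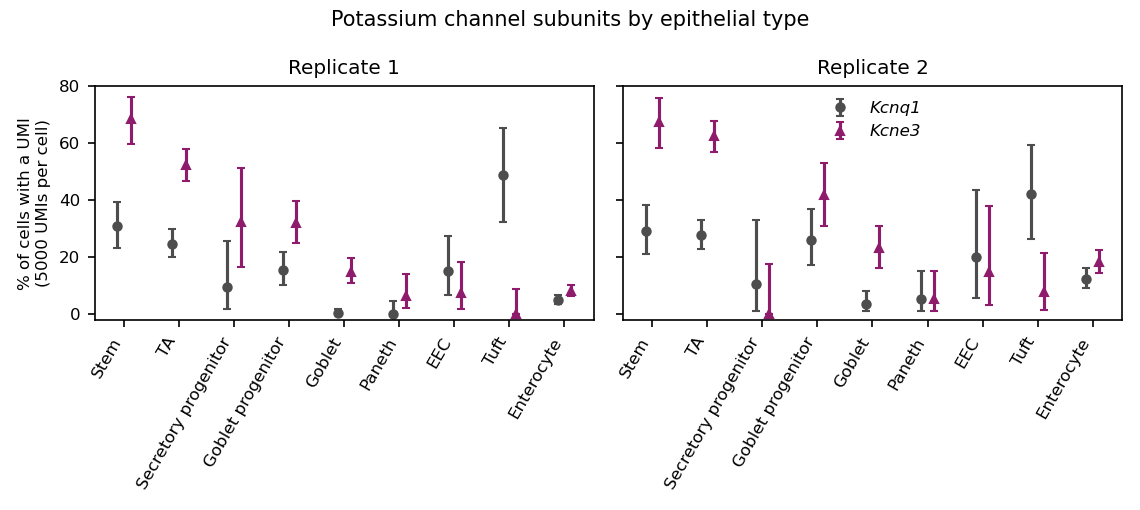
Share of cells with at least 1 UMI of Kcnq1 (circles) and Kcne3 (triangles) after thinning to 5000 UMIs per cell, by epithelial type and library, with exact 95% binomial intervals. Kcne3 led in stem and TA cells, whereas in tuft cells Kcnq1 was found in 48.7% and 42.1% and Kcne3 in 0 and 7.89%.

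Slc26a3 and Slc26a6, which exchange luminal chloride for bicarbonate, were highest in enterocytes. Slc26a3 (chr12:31390871-31473917, plus strand) had 179.9 and 112 CPM in enterocytes and 46.0 and 26.8 CPM in TA cells, without overlap. Stem cells had 17.9 and 15.0 CPM, and goblet and Paneth cells had 18 and 1 UMIs in all over both libraries. Enterocytes exceeded stem and TA cells by 2.92 on the log2 scale (SE 0.19, adjusted p = 1.8e-13), and these exceeded mature secretory cells by 2.72 (SE 0.35, adjusted p = 2.8e-07). The summed CPM of 6 enterocyte markers rose too, from 623 and 477 in stem cells to 1853 and 869 in TA cells and 45789 and 27562 in enterocytes. Goblet cells had 2522.5 and 2383.7 CPM of these markers, beside 1.32 and 5.81 CPM of Slc26a3. The part of enterocyte RNA in the TA level of Slc26a3 was not tested.

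Slc26a6 (chr9:108853283-108913049, plus strand) had 249 and 125 CPM in enterocytes, and no other type exceeded 22.04 CPM in replicate 1 or 8.74 CPM in replicate 2, both TA values. Enterocytes held 93.6% and 91.1% of its epithelial UMIs. The difference from stem and TA cells was 4.92 (SE 0.24, adjusted p = 3.7e-15). Stem and TA cells did not pass against mature secretory cells (0.79, SE 0.45, adjusted p = 0.161), where goblet cells had 13 and 2 UMIs, Paneth cells 9 and 0, EECs 9 and 0 and tuft cells 0 and 2, and by library the values were 0.95 and 2.29. Both exchangers were found together in 351 of 930 and 77 of 382 enterocytes at 5000 UMIs, or 37.7% and 20.2%, where the product of their single shares gives 37.3% and 16.8%. In IELs, which should lack them, 4 of 50 cells of replicate 1 had a UMI of Slc26a3 and 4 of Slc26a6, and 0 of 18 in replicate 2, at median depths of 4109.5 and 10225.5 UMIs per cell, beside 16975 and 13405 in enterocytes.

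RefSeq promoters (GRCm38.p6, 250 bases before to 50 after the start) were available for 7 of the 9 genes, 9 windows in all, and are shown for Slc26a3, which was highest in enterocytes, and Cftr, which was highest in the crypt. Both strands were searched for the string TATAAA of the TATA box, for GTTAATNAT, which HNF1 binds, for CAAAGTCC, which HNF4 binds, for TTTATNG of the CDX factors, for AGATAA of the GATA family and for CTTTGAT of the TCF family, and no match overlapped another. Capitals mark the matches.
Slc26a3, chr12:31437969-31438268, plus strand: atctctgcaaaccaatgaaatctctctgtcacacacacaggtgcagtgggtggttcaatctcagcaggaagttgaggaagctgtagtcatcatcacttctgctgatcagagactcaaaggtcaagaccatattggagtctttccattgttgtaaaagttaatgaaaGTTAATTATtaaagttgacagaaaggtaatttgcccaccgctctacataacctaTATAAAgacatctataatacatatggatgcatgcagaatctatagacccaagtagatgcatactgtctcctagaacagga
Cftr, chr6:18170437-18170736, plus strand: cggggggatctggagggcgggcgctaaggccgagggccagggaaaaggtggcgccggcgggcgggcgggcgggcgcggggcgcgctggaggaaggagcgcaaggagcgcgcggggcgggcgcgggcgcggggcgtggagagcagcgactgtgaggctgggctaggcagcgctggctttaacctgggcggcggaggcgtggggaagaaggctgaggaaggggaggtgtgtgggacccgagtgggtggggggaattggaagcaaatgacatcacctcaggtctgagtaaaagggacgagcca
The Slc26a3 window held TATAAA 30 bases before the start and an HNF1 match 84 bases before it, letters found in 13.6% and 0.801% of all 32851 promoters in the table. The strings of HNF4, CDX, the GATA family and TCF occurred in 1.42%, 10.9%, 11.2% and 3.73% of all promoters. They were in none of the 9 windows, and no window but that of Slc26a3 held any of the 6 strings, which says only that these letters were not there. The windows also differed in base composition, with 39.3% G and C and 1 CG dinucleotide for Slc26a3, and 71.3% and 31 for Cftr, beside a median of 52.7% over all promoters. The Slc26a6 window lay between, at 56.0% and 13.

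Slc9a3, the main route of sodium uptake from the lumen (chr13:74121457-74169442, plus strand), was close to the detection limit. Its 54 and 2 epithelial UMIs were nearly all in enterocytes, 52 and 2, or 2.69 and 0.374 CPM. A UMI was seen in 49 of 931 and 2 of 382 enterocytes. In TA cells 0 UMIs were counted, which allows up to 0.355 and 0.525 CPM, and a difference between other types was not detectable at this depth. In replicate 2 the limits of TA cells and of EECs (13.9 CPM) lay above the enterocyte level. Genes that act with Slc9a3 were better detected. Chp2, a calcineurin-like protein that binds sodium-proton exchangers, had 266 and 48.6 CPM in enterocytes, Slc9a3r1 (NHERF1), a scaffold of the brush border, 448 and 293 CPM, and the scaffold Pdzk1 91.1 and 60.2 CPM. The log2 fold changes over stem and TA cells were 3.16 (SE 0.18, adjusted p = 2.2e-15) for Chp2 and 3.02 (SE 0.18, adjusted p = 3.3e-13) for Slc9a3r1. Pdzk1 had 4 UMIs in stem and TA cells of both libraries together.

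Slc4a4 (NBCe1), the basolateral bicarbonate loader (chr5:88886818-89239653, plus strand), was shared between enterocytes and the crypt. Enterocytes had 96.8 and 54.2 CPM, TA cells 73.6 and 37.9 CPM, goblet progenitors 51.6 and 36.0 CPM and stem cells 49.9 and 32.4 CPM, with overlap between all neighbours. The enterocyte level was above that of stem and TA cells by 1.01 (SE 0.25, adjusted p = 0.0024), a call lost with DESeq2 (adjusted p = 0.0591) and without the mouse term (adjusted p = 0.0938). Goblet cells had 3.17 and 6.71 CPM and Paneth cells 1 and 4 UMIs, and stem and TA cells exceeded mature secretory cells by 2.42 (SE 0.33, adjusted p = 1.6e-05), and by library by 3.11 and 2.77.

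Atp1b1, the beta subunit that carries the sodium pump to the membrane (chr1:164437109-164458355, minus strand), was present in all epithelial types. Enterocytes had 1254 and 699 CPM, tuft cells 706 and 682 CPM, stem cells 472 and 388 CPM, TA cells 500.9 and 348.4 CPM and goblet cells 308 and 251 CPM. The enterocyte and tuft ranges overlapped, and tuft cells lay above all remaining types in both libraries. Enterocytes exceeded stem and TA cells by 1.52 (SE 0.14, adjusted p = 1.7e-10). Between stem and TA cells and mature secretory cells the value was 0.11 (SE 0.11, adjusted p = 0.471). Paneth cells had 36.1 and 24.1 CPM, or 232 and 199 CPM on the TMM scale.

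The alternative beta subunit Atp1b3 was lower in enterocytes than in stem and TA cells, at 12.7 and 24.9 CPM (-0.78 on the log2 scale, SE 0.18, adjusted p = 4.4e-04). Likeness of pattern was measured as Pearson's r of TMM-scaled log2 values over the 18 sums. The closest gene was Lrrc19 for Slc26a6 (r = 0.95), Cyb5a for Atp1b1 (r = 0.96), Maoa for Slc26a3 (r = 0.94), Pde3a for Cftr (r = 0.94), Plcb3 for Slc4a4 (r = 0.93), Ddx18 for Kcne3 (r = 0.93), Tmed1 for Kcnq1 (r = 0.89) and Phgdh for Slc12a2 (r = 0.88). Among the members themselves, r was highest between Cftr and Slc4a4 (0.77) and lowest between Slc12a2 and Atp1b1 (-0.76). Sums of 1 library share its preparation, so these values are descriptions.

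Sites for miR-375-3p, whose seed (bases 2 to 8) was read from the RefSeq hairpin, were searched as the microRNA is missing from these mice. The search covered the 3′ end of 1 annotated transcript of each of the 9 genes (GENCODE M21, mm10). A principal transcript was preferred, then the longest 3′ end, and other annotated ends were not searched. Lengths ran from 266 bases for Slc26a6 to 4183 for Slc4a4. Slc4a4 and Atp1b1 held the form GAACAAA, which pairs with bases 2 to 7 and has an A opposite base 1. The searched ends of the other 7 genes held neither this form nor a longer one. The sites are shown with 11 bases on either side and the match in capitals.
Slc4a4, chr5:89236545-89236551, plus strand: ccagaaggctaGAACAAAttaaaagaaaa
Slc4a4, chr5:89239437-89239443, plus strand: tcaacatggtgGAACAAAatgataaagaa
Atp1b1, chr1:164438200-164438206, minus strand: ctactagtcttGAACAAActgtcatacgt
The string CGAACAA, which pairs with all of bases 2 to 8, was found in none of the 9 ends searched. Without wild-type libraries, nothing in these data bears on the use of the 3 matches.

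Taking both comparisons, 7 of the 8 tested members differed between enterocytes and stem and TA cells, 4 higher (Slc26a3, Slc26a6, Slc4a4 and Atp1b1) and 3 lower (Slc12a2, Kcne3 and Kcnq1) in enterocytes. Of all genes tested, 57.6% passed, 31.9% higher and 25.8% lower. Between stem and TA cells and mature secretory cells, 5 of 8 passed, all higher in stem and TA cells (Cftr, Slc26a3, Slc4a4, Kcne3 and Kcnq1), where 44.4% of all genes passed, 24.3% higher and 20.0% lower. The median log2 fold change of the 8 was 0.31 and 1.86, beside 0.06 and 0.05 over all genes.

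**Figure D3:**
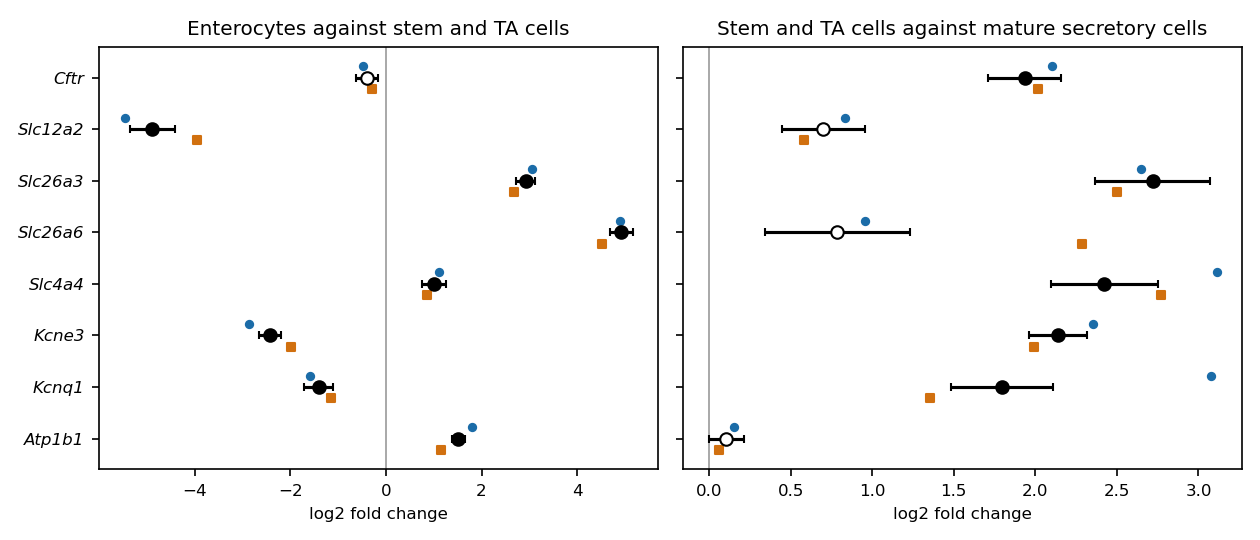
Log2 fold change of the 8 tested genes in both comparisons. Black points are the fitted values with their SE, filled where the adjusted p was below 0.05, and the small circles and squares are replicates 1 and 2 alone. The members separated to both sides of 0 in the enterocyte comparison, and lay above 0 in the other.

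The rest of the pathway was taken from a list of 70 further transport genes, of which 51 could be tested. In enterocytes 35 were higher and 9 lower than in stem and TA cells (median log2 fold change 1.07). Apical sodium uptake genes were higher in 8 of 10 and lower in 0. The sodium-glucose cotransporter Slc5a1 reached 776 and 455 CPM in enterocytes against 51.0 and 49.9 CPM in stem cells, and the phosphate carrier Slc34a2 reached 49.2 and 41.5 CPM with 5 UMIs in stem and TA cells. Of the genes listed under anion exit and exchange, 4 of 4 were higher, led by Clca4b (2.85, SE 0.33, adjusted p = 3.9e-05), with Clcn2 and Slc26a2 among them. Of the potassium channels 1 was higher (Kcnk5, 2.31, SE 0.26, adjusted p = 2.9e-08) and 1 lower (the calcium-activated Kcnn4, -2.21, SE 0.25, adjusted p = 2.2e-07).

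Basolateral carriers were higher in 3 of 4, with Slc12a7 at 1.16 on the log2 scale (adjusted p = 4.0e-07). Slc4a7 had 1.07 (adjusted p = 3.0e-04), but 1.51 in replicate 1 and 0.17 in replicate 2, where enterocytes (12.2 CPM) were not above stem (12.5 CPM) or TA cells (12.8 CPM). The water channels split, with Aqp8 at 20.3 and 7.67 CPM and Aqp3 at 9.40 and 5.80 CPM in enterocytes but 5 and 2 UMIs in stem and TA cells, while Aqp4 was lower by -3.19 (SE 0.26, adjusted p = 4.7e-12). Carbonic anhydrases were higher in 4 and lower in 2 of 6, with Car8 at -5.70 and Car12 at -2.80 (adjusted p = 4.7e-13 and 1.4e-08). Car2 was higher by 2.71 (SE 0.52, adjusted p = 5.2e-05), at only 8.06 and 1.12 CPM in enterocytes, and by library the values were 2.63 and 0.69. Among signalling genes, 11 of 15 were higher. Guca2b and Guca2a, the peptides that switch on guanylate cyclase C and thereby Cftr, had 2330 and 1912 CPM and 289 and 768 CPM in enterocytes. Paneth cells held Guca2b as well, at 1061 and 707 CPM before TMM scaling, which raises Paneth levels. The TMM factors, by which levels are divided, were 0.156 and 0.121 for Paneth cells and 1.01 and 1.08 for enterocytes. On that scale Paneth cells lay above enterocytes for Guca2b in both libraries. The kinase Sgk1 was higher in enterocytes by 3.37 (SE 0.23, adjusted p = 4.8e-13). The pump-associated Fxyd3 was lower by -2.71 (SE 0.52, adjusted p = 0.0017), with -3.76 in replicate 1 and -1.39 in replicate 2, and enterocyte levels of 1.96 and 10.1 CPM.

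Against mature secretory cells, 20 of the 51 were higher and 14 lower in stem and TA cells (median 0.34). Fxyd3 was lower in stem and TA cells by -4.19 (SE 0.34, adjusted p = 9.8e-06), at 987 and 1057 CPM in goblet cells. Paneth cells had 186 and 118 CPM of Fxyd3, but on the TMM scale they lay above goblet cells in replicate 1. Among the mature secretory types, goblet cells had the highest levels of Guca2a (5537 and 9917 CPM), Kcnk6 (84.9 and 72.9 CPM) and the sodium channel subunit Scnn1a (54.7 and 48.7 CPM). Car13, Car9, Aqp4, Aqp1, Chp2 and Kcnk5 were higher in stem and TA cells, by 3.86, 2.33, 1.42, 1.32, 2.32 and 4.21 (adjusted p from 3.7e-10 to 0.0015). The Kcnk5 value had an SE of 1.03 and was 1.84 and 3.03 by library, with 0 CPM in Paneth and tuft cells of both. Stem cells, at 3.36 and 6.23 CPM of Kcnk5, were not above goblet cells, at 6.35 and 4.92 CPM, in replicate 1.

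Enterocytes were not uniform. The authors' 5 enterocyte clusters ran from number 2, with 25.1 and 11.8 CPM of Apoa4 and 20.6 and 28.2 CPM of the division marker Mki67, to number 1, with 7011 and 5387 CPM of Apoa4 and no Mki67 UMI. Kcne3, Kcnq1 and Slc12a2 were low at the Apoa4-rich end. Kcne3 had 76.0 and 163 CPM in cluster 2 and 0.204 and 0 CPM in cluster 1, Kcnq1 38.3 and 44.5 against 1.83 and 2.27 CPM, and Slc12a2 15.7 and 28.8 against 0.612 and 0 CPM. Slc26a6 went from 90.9 and 19.7 CPM to 379 and 282 CPM and Atp1b1 from 696 and 384 CPM to 1651 and 1100 CPM. Cftr lay between 29.8 and 70.6 CPM in all 5 clusters and both libraries. It was highest in cluster 2, at 70.6 and 68.1 CPM, and had 29.8 and 47.6 CPM in cluster 1. Slc26a3 was highest in cluster 3 (240.5 and 192 CPM) and Slc4a4 in cluster 9 (148 and 88.0 CPM). As the clusters were made from the same cells, these values carry no test.

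**Figure D4:**
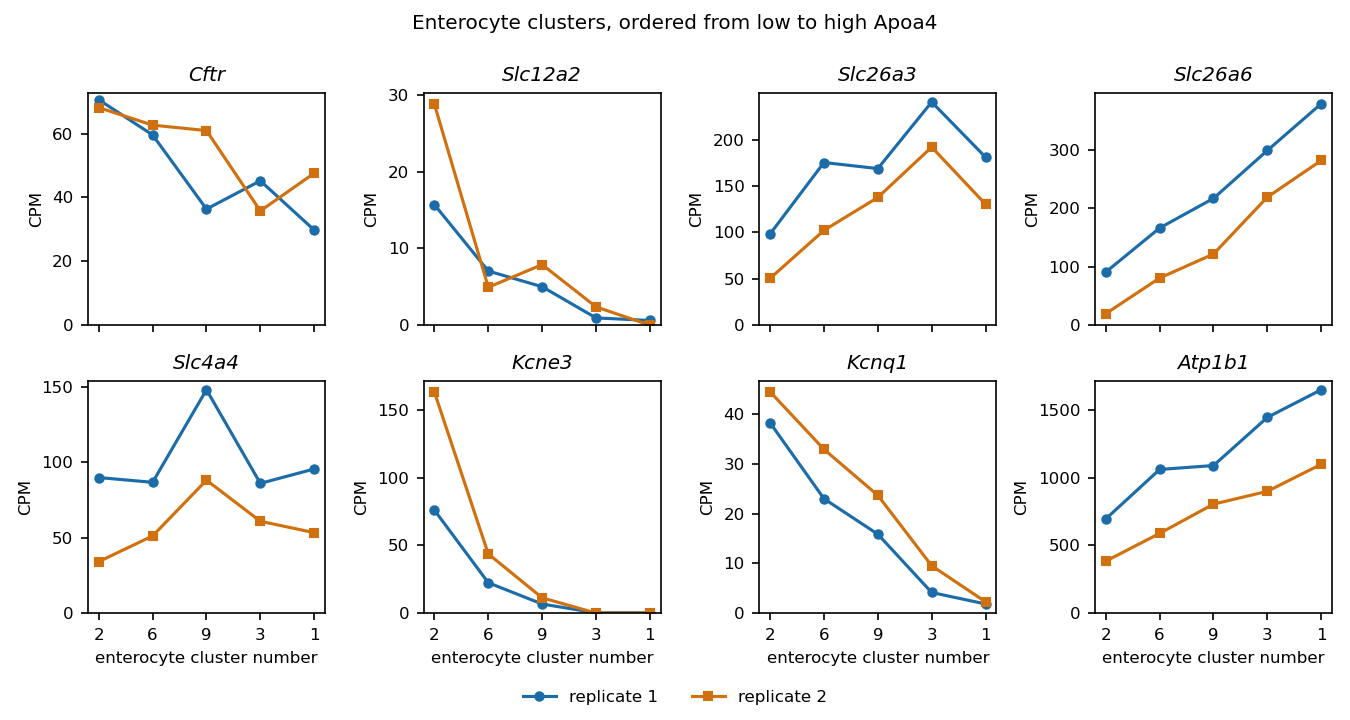
Level (CPM) of the 8 better detected genes in the authors' 5 enterocyte clusters, ordered from low to high Apoa4, in replicate 1 (circles) and replicate 2 (squares). Lines only link the points of a library. Cftr, Kcne3, Kcnq1 and Slc12a2 were highest on the left and Slc26a6 and Atp1b1 on the right, in both libraries.

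The libraries differed in several members, which cannot be tested with 1 library per mouse. Atp1b1 was lower in replicate 2 in 9 of 9 epithelial types, at ratios between 0.525 and 0.966. In enterocytes the ratio of replicate 2 to replicate 1 was 0.502 for Slc26a6, 0.623 for Slc26a3, 0.56 for Slc4a4 and 0.558 for Atp1b1. Kcne3 went the other way, higher in replicate 2 in 8 of 9 types and 3.16 times as high in enterocytes. The make-up of the enterocytes differed too, with 30.3% in cluster 1 and 19.7% in cluster 2 in replicate 1, and 18.8% and 28.0% in replicate 2. Within all 5 clusters Slc26a3, Slc26a6, Slc4a4 and Atp1b1 were still lower in replicate 2, and with the clusters weighted equally the ratios were 0.709, 0.628, 0.568 and 0.636, and 2.07 for Kcne3. Median mitochondrial content of enterocytes was 13.2% and 7.59%. The stricter filter on gene number and mitochondrial reads kept 148 of 931 and 307 of 382 enterocytes. In the cells kept, Slc26a6 had 125 and 107 CPM, Slc26a3 121 and 106 CPM, and Kcne3 51.5 and 67.6 CPM. Atp1b1 had 880 and 653 CPM, and Slc4a4 96.6 and 51.4 CPM. The libraries thus lay closer together than with all enterocytes, except for Slc4a4. The part of mitochondrial content in these differences was not tested.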

How the data were processed

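Libraries were prepared from jejunal crypts with a 10x Genomics 3′ kit. The authors aligned reads to mm10 with Cell Ranger 3.0.1, discarded doublets (scDblFinder) and cells under 1500 genes or over 25% mitochondrial reads, and named clusters in Seurat (3.2.1 in the submitters' notes) from module scores. SoupX was used against free RNA, but on which matrices is not stated. The deposited UMI counts per gene and cell are whole numbers, not normalised. The deposited percent of mitochondrial reads was used as given by the authors.

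Annotated cells were matched by barcode to the matrices of their library, which name the genes. All 3275 had the annotation's UMI totals and gene numbers in the table of filtered cells, which names none, and 3274 had a matrix total within 1% of it. A further 2937 columns of cells in it come from another series and were left out. The authors' sctransform-corrected counts were not used here. Counts were summed per mouse and type (18 sums of 9 epithelial types), filtered with filterByExpr, scaled by TMM and fitted in edgeR 4.0.16 (R 4.3.3, quasi-likelihood, robust, two-sided) with type and mouse as terms and 8 residual degrees of freedom, leaving 11013 genes for Benjamini-Hochberg adjustment at 0.05. The numbers of the sums pair by design, since those of 1 number come from the same mouse. SE is the fold change over the square root of F. Per-library fold changes use a prior count of 2. Depth was 44017234 and 22163354 UMIs in annotated cells. Intervals are exact at 95%, a count of 0 allows 3 counts, and both cover counting error only. The fit was tested on simulated data.

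The members and gene lists were chosen with earlier results of these data known. All members are named, and, for each role and comparison, at most 3 other list genes that passed with the same sign in both libraries, by size of change. Chp2, Slc9a3r1, Pdzk1 and Atp1b3 are named whatever their values, as is the gene most like each member. Some genes that the rule selects are not reported here. Alternatives were DESeq2 1.42.0, RLE or no scaling factors, no filter, no mouse term, stricter cells (2000 genes, 10% mitochondrial reads), thinning to 5000 UMIs, and leaving out Paneth cells or a replicate.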

Additional observations from a re-analysis of the deposited data

How the results depend on the processing

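Of the member results, the direction turned once. Without Paneth cells the difference of Atp1b1 between stem and TA cells and mature secretory cells was -0.037 (adjusted p = 0.845, edgeR), beside 0.11. Without the mouse term (no replicate block) 3837 genes, against 6347, and 5 members, against 7, passed in the enterocyte comparison, with Slc4a4 and Kcnq1 lost. Without scaling factors 8 members, against 5, and 7758 genes, against 4889, passed between stem and TA cells and mature secretory cells, and with thinned cells 2976 genes did. The median of all genes moved to -0.29 without scaling factors in the enterocyte comparison and to 0.87 in the other, and to 0.32 there with thinned cells, and 35.4% of calls were higher in the first case against 55.3%, and 91.0% and 71.5% against 54.8% in the second. Slc12a2 passed there in 6 of 8 alternatives, Slc26a6 in 3 and Atp1b1 in 2. Cftr passed in 3 between enterocytes and stem and TA cells. Without a filter Slc9a3 could be tested, and 9 members passed in that comparison, as did 6537 of the 17626 genes then tested. The Slc9a3 call rests on 52 and 2 UMIs in enterocytes. The type with the highest level was the same for 9 genes with stricter or thinned cells, and on the TMM scale Cftr was highest in stem cells. For fold changes from a single library, 24 of 32 lay within 1 SD (between the libraries) of the fitted value and 0 turned direction. As that SD comes from the same 2 values, the count of 24 cannot show how stable the fold changes are. The causes were not tested, except that fewer genes remained to be tested after thinning (8273). With 2 mice, the spread rests on the assumption that types share 1 dispersion per gene.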
